A study of Mus musculus with 24 samples.

Results

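Protein-protected sites (PPSs) on the RNA of 10 erythroid transcription factor genes were followed through the differentiation of MEL cells. The genes were Gata1, Klf1, Tal1, Nfe2, Lmo2, Ldb1, Zfpm1, Gfi1b, Cbfa2t3 and Lyl1, taken as named out of 21938 annotated protein-coding genes. A PPS was assigned to a gene when it overlapped the gene body on the same strand by at least 1 nt. This gave 2066 of the 460777 PPSs in the 3 lists, and 1729 of 356432 once PPSs of 20 to 40 nt, the size of a ribosome footprint, were left out. The values below rest on these 1729 PPSs, of which 509 came from day 0, 576 from day 2 and 644 from day 4.

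MEL cells are a murine erythroleukemia line held at the proerythroblast stage that differentiates toward normoblasts when grown with DMSO. Cells were collected at day 0, before DMSO, and at days 2 and 4 of DMSO, all from the same line and all crosslinked with formaldehyde. Protein interaction profile sequencing (PIP-seq) was then applied, in which RNA is digested either by a nuclease specific to single-stranded RNA (ssRNase) or by one specific to double-stranded RNA (dsRNase). In footprinting libraries the digestion came before protein was removed, and in structure-only libraries it came after. The 24 libraries, 8 a day, formed 12 groups of 2 replicates, and the authors called PPSs where footprinting reads exceeded structure-only reads and pooled them into 1 list a day. A name field keeps the nuclease and the replicate of every call in a PPS.

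Gata1 is the zinc finger factor that red cell precursors require, and Zfpm1 (FOG-1) is the cofactor bound to its N-terminal finger. Tal1 and its relative Lyl1 are basic helix-loop-helix proteins that join Gata1 on DNA through the bridging proteins Lmo2 and Ldb1, while Gfi1b and Cbfa2t3 (Eto2) bring repressive activity to this complex. Klf1 and Nfe2 bind regulatory elements of the globin genes, among many others. The data below concern the RNA of these regulators and not their binding to DNA.

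Several members carried a short stretch that was protected on more than 1 day, and the sequences of such sites are shown first because the coverage values below are sums over sites of this kind. All are written 5′ to 3′ on the transcript strand in GRCm38 (mm10). For Klf1, Tal1, Ldb1, Zfpm1, Gfi1b, Cbfa2t3 and Lyl1, capitals mark the bases that lay inside a PPS on all 3 days.

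The coding sites came from Klf1 exon 2 (chr8:84902689-84902766, plus strand), Ldb1 exon 4 with the start of intron 4 (chr19:46035891-46035999, minus strand), Zfpm1 exon 3 with its intron flanks (chr8:122307439-122307678, plus strand) and Lyl1 exon 4 (chr8:84704001-84704189, plus strand):
Klf1 exon 2: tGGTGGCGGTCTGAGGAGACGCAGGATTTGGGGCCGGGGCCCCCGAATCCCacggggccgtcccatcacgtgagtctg
Ldb1 exon 4: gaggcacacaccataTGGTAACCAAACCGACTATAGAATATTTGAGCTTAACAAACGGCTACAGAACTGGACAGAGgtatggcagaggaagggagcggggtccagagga
Zfpm1 exon 3: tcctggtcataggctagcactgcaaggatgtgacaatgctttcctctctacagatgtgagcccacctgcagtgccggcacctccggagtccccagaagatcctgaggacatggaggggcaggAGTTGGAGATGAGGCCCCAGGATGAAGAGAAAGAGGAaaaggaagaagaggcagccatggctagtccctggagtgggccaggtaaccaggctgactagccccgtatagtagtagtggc
Lyl1 exon 4: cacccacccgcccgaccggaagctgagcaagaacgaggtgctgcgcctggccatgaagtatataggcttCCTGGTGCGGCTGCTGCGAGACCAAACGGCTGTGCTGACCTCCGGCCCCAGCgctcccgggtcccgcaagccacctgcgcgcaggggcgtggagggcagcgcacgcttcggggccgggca
The shared stretch of Ldb1 ended exactly at the last base of exon 4, so that the intron that follows was protected on some days but not on all. In Zfpm1 the shared 37 nt were a purine-rich run inside exon 3, and in Lyl1 the shared 52 nt lay in the middle of the 189-nt PPS found at day 0.

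The intronic sites came from Tal1 intron 2 (chr4:115060507-115060801, plus strand), Zfpm1 intron 3 (chr8:122312351-122312644, plus strand), Gfi1b intron 1 (chr2:28621061-28621202, minus strand) and Cbfa2t3 intron 1 (chr8:122673004-122673288, minus strand). They show how long the recurrent intronic stretches could be, up to 253 nt in the Cbfa2t3 example:
Tal1 intron 2: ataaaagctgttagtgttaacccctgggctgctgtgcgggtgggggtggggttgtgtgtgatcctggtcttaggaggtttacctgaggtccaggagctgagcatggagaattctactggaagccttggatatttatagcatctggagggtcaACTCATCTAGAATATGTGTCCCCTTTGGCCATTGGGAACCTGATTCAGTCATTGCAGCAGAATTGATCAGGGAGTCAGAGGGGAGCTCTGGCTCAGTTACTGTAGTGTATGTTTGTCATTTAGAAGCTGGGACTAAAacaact
Zfpm1 intron 3: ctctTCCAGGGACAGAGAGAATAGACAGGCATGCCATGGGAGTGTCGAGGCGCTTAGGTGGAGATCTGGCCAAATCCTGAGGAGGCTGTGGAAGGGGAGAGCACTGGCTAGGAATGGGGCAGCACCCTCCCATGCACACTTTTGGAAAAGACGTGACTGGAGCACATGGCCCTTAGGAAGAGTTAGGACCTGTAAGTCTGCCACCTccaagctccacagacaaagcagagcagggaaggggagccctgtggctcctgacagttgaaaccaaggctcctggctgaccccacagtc
Gfi1b intron 1: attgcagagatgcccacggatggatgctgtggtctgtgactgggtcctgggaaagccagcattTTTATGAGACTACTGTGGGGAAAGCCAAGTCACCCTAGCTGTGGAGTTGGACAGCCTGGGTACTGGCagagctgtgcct
Cbfa2t3 intron 1: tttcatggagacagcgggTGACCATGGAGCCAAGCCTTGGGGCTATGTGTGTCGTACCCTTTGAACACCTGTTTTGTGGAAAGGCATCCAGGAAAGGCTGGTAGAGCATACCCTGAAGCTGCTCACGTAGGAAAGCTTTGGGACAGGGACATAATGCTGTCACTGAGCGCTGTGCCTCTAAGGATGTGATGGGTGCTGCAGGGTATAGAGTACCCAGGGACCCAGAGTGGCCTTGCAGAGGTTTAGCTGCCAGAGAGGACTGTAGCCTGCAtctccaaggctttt

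The remaining 3 sites were the highest-scoring PPSs of genes with few recurrent regions. Gata1 intron 1 (chrX:7963576-7963642, minus strand) is given with capitals for the bases inside a PPS on both day 2 and day 4. Lmo2 exon 1 with the start of intron 1 (chr2:103970670-103970743, plus strand) has the exon in capitals, and Nfe2 exon 3 (chr15:103248776-103248852, minus strand) has no capitals because no PPS of another day reached it:
Gata1 intron 1: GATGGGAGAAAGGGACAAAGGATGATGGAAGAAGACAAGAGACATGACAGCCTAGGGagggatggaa
Lmo2 exon 1: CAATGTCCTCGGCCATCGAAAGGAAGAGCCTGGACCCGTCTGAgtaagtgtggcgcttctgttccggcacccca
Nfe2 exon 3: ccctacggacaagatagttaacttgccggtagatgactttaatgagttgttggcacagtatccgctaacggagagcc
The Gata1 site was 41.8% A and 40.3% G, so that purines made up most of it. The Lmo2 site, found at day 0, crossed from exon 1 into the intron, whose first bases were GT.

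Coverage was defined as the percentage of a gene's exonic or intronic nucleotides that lay in a PPS. A replicate's coverage used the PPSs that held a call of that replicate, so both replicates share merged coordinates and their spread understates the true spread. Coverage by nuclease was taken in the same way, so the 2 nucleases share merged coordinates too. With 2 replicates a day an exact two-sided permutation test cannot go below p = 0.333, and no test was run. A member is called higher or lower at a later day only where both of its replicates lay above, or below, both replicates of day 0, and the share of all protein-coding genes meeting the same rule is given beside each count. Coverage follows the amount of an RNA in the pooled cells as well as its protection, and these cannot be told apart here. Read depth is unknown from the lists, and genes used by every cell such as Actb and Eef2 (chosen after their values were seen) had 0 PPSs on all days, so that 0 does not mean that an RNA was absent.

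From day 0 to day 4, exonic coverage was higher for Tal1, Zfpm1 and Ldb1 and lower for Lmo2, Gfi1b and Cbfa2t3, while for Gata1, Klf1, Nfe2 and Lyl1 the replicates overlapped. These counts, 3 higher and 3 lower of 10 members, stand beside 30.8% higher and 25.4% lower of the 9550 genes with an exonic PPS, so neither count was far from the background. The sizes were less ordinary for some members. The median change of the members was 3.17 percentage points, against 0 over all genes. A positive pooled change was found in 6 of the 10, beside 48.5% of genes. Among the 6 were Gata1, Klf1 and Nfe2, whose replicates overlapped.

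Tal1 had the greatest change. Its exonic coverage was 12.4% and 21.4% in the replicates of day 0, 18.9% and 25.1% at day 2, and 56.6% and 42.2% at day 4. The day 4 replicates stood far above all others, and day 2 overlapped day 0. The pooled list went from 22.8% to 58.4%, a change of 35.6 points (20.9 to 44.3 over the 4 pairs of replicates), which exceeded the change of 99.6% of genes. At day 4 the level itself was above that of 99.6% of genes, among which the median was 6.02%.

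Zfpm1, the Gata1 cofactor, was covered at 11.3% and 15.8% at day 0, 27.1% and 21.5% at day 2, and 26.8% and 27.9% at day 4. Both later days lay wholly above day 0 and close to each other, with a pooled change to day 4 of 14.0 points (11.05 to 16.6). Ldb1, the bridging protein of the complex, had 20.7% and 21.5% at day 0 and 33.8% and 25.7% at day 4, with a change of 8.49 points (4.23 to 13.1). Its day 2 replicates, at 18.7% and 23.4%, fell on either side of day 0.

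Lmo2, which links Tal1 to Ldb1, was the member that lost most. Its exonic coverage was 31.6% and 36.7% at day 0, 8.73% and 16.2% at day 2, and 16.2% and 13.6% at day 4. All later replicates were below both of day 0, and the pooled change of -16.4 points at day 4 (-23.1 to -15.5) was under that of all but 2.61% of genes. At day 0 its pooled level, 36.7%, was above 97.9% of genes, and at day 4 the level, 20.3%, was still above 88.4%.

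Gfi1b and Cbfa2t3 were lower at day 4 by smaller steps. Gfi1b had 19.3% and 22.02% at day 0 and 16.6% and 10.6% at day 4, a change of -9.29 points (-11.4 to -2.68), while its day 2 values of 23.8% and 19.1% overlapped day 0. Cbfa2t3 had 15.7% and 15.4% at day 0, 6.65% and 12.3% at day 2, and 12.6% and 9.26% at day 4, so that both later days were lower. The change of Cbfa2t3 at day 4 was -6.38 points (-6.46 to -2.84 over the pairs).

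The remaining 4 members showed no separation at day 4. Gata1 itself had 7.96% and 7.38% at day 0 and 16.2% and 5.58% at day 4, with 1 replicate above and 1 below both of day 0. Klf1 had 20.1% and 10.5% at day 0 and 14.0% and 19.5% at day 4, after a day 2 at which it was covered at 28.1% and 26.3%. Nfe2 had 12.2% and 10.4% at day 0 and 16.6% and 9.20% at day 4. Lyl1 had 26.9% and 40% at day 0, 23.8% and 21.2% at day 2, and 31.7% and 23.8% at day 4, with day 4 across the lower end of day 0.

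**Figure D1:**
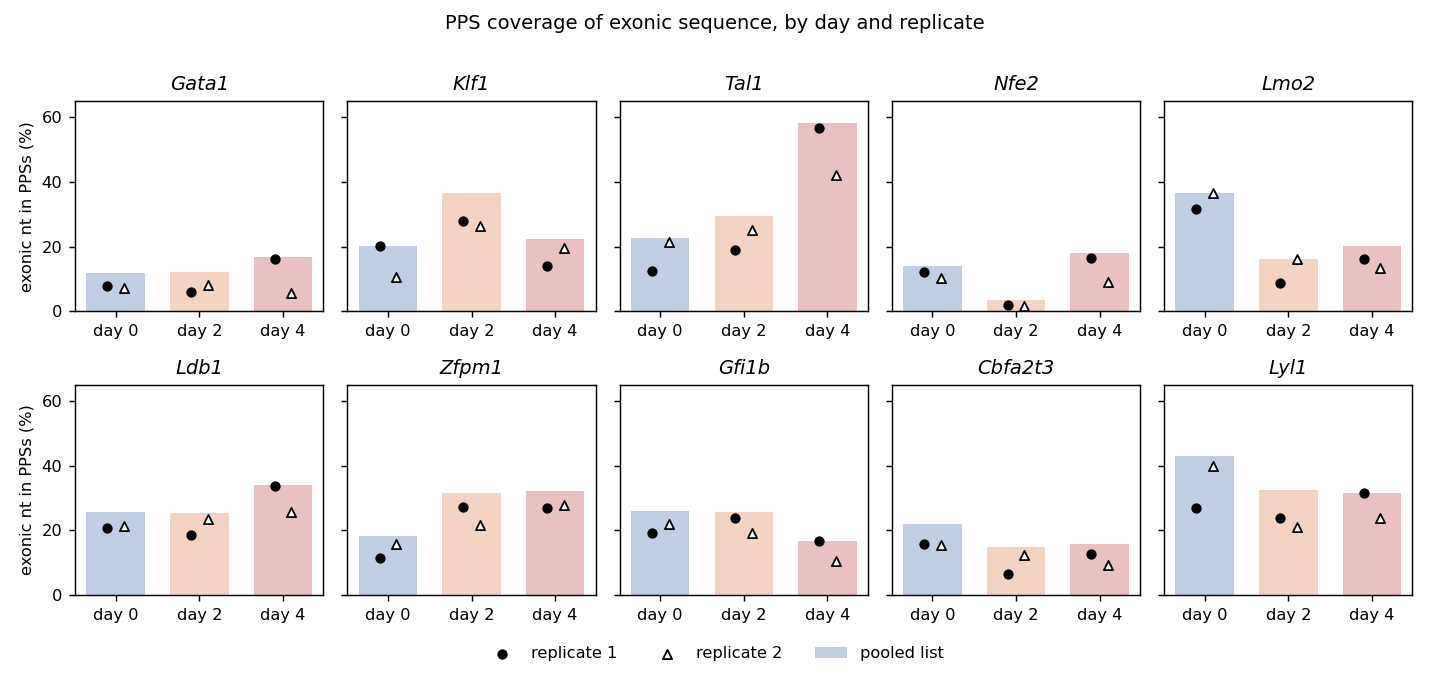
Exonic coverage (percentage of exonic nt in a PPS) of the 10 genes at days 0, 2 and 4, with bars for the pooled list, circles for replicate 1 and open triangles for replicate 2. Tal1 stood at 58.4% at day 4 with both replicates above day 0, Lmo2 was highest at day 0, and the replicates of Gata1 at day 4 were far apart.

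Day 2 differed from day 4 for several members. Exonic coverage was higher than at day 0 for 2 members, Klf1 and Zfpm1 (22.3% of genes), and lower for 4, Nfe2, Lmo2, Cbfa2t3 and Lyl1 (30.4% of genes). Klf1 changed by 16.6 points at day 2 (6.21 to 17.6 over the pairs), more than 99.4% of genes, and its pooled level went from 20.1% to 36.7% and was 22.4% at day 4. With either nuclease alone the Klf1 replicates of day 2 overlapped day 0, the pairs running from -0.980 to 16.7 points with ssRNase calls and from -3.53 to 11.6 points with dsRNase calls. Nfe2 was covered at 1.87% and 1.67% at day 2, far under its other days, and its pooled change was -10.6 points. The Lmo2 change of -20.5 points was under that of all but 1.06% of genes. Over the 10 members the median change at day 2 was -0.0925 points, beside -0.454 over all genes.

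In introns, protection was higher at day 4 for 5 members, Klf1, Tal1, Ldb1, Zfpm1 and Gfi1b, and lower for 3, Lmo2, Cbfa2t3 and Lyl1. The same rule was met upward by 26.9% and downward by 24.4% of the 7333 genes with an intronic PPS. At day 2 the higher members were Gata1, Klf1, Tal1, Zfpm1 and Gfi1b (26.9% of genes) and the lower ones again Lmo2, Cbfa2t3 and Lyl1 (18.7% of genes). The median change of the members at day 4 was 1.67 points, against 0 over all genes.

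Klf1 had the greatest intronic change. Its introns were covered at 4.14% in both replicates of day 0, at 5.78% and 9.76% at day 2, and at 35.1% and 19.6% at day 4. Each later day stood above day 0 without overlap, and the pooled change at day 4, 30.9 points (15.5 to 30.9), exceeded that of 99.8% of genes. Klf1 introns are short, 1834 nt in all, so that a few PPSs make up these percentages. Its exonic coverage at the same day did not separate from day 0.

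Zfpm1 and Tal1 had higher coverage in introns as well as in exons. Zfpm1 introns, 51608 nt long, were covered at 12.4% and 16.4% at day 0, 27.1% and 29.5% at day 2, and 39.3% and 34.0% at day 4. Tal1 introns were covered at 7.95% and 8.57%, then 20.6% and 21.8%, then 26.4% and 23.6%. In both genes the days did not overlap in either step, and the pooled changes to day 4 were 23.8 points (17.7 to 26.9) and 17.8 points (15.0 to 18.4).

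Gfi1b went the opposite way in introns from its exons. Intronic coverage was 7.70% and 5.06% at day 0, 22.6% and 22.2% at day 2, and 14.8% and 15.2% at day 4, highest at day 2 and still above day 0 at day 4. Ldb1 introns differed by a small step, from 3.19% and 5.85% to 7.18% and 7.25% at day 4. Gata1 had lower intronic coverage than most members, 0.379% and 2.30% at day 0, 3.36% and 4.84% at day 2, and 2.18% and 3.08% at day 4. It separated from day 0 at day 2 only. Its pooled levels were still above 80.2%, 92.3% and 88.4% of genes on the 3 days.

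Cbfa2t3 had the most protected introns of the members at day 0. Its coverage was 33.6% and 32.6% at day 0, a pooled level above 99.7% of genes, then 21.1% and 22.9% at day 2 and 27.6% and 26.6% at day 4. The lowest values were at day 2, and day 4 stayed below day 0. Lmo2 introns were covered at 4.42% and 5.38% at day 0, and at 0.654% and 0.101% at day 4. Lyl1 introns, 1459 nt in all, went from 15.2% and 13.6% to 7.61% and 10.8%. Nfe2 introns, outside the exons of all its transcripts, held no PPS nucleotides at day 4, after 2.67% and 0% at day 0. Intron 1 of its transcript with the longest CDS was covered, at 80.5% and 67.1% at day 0 and 39.0% and 0% at day 4. With the introns of that transcript Nfe2 was lower at day 4, as were 25.1% of genes.

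**Figure D2:**
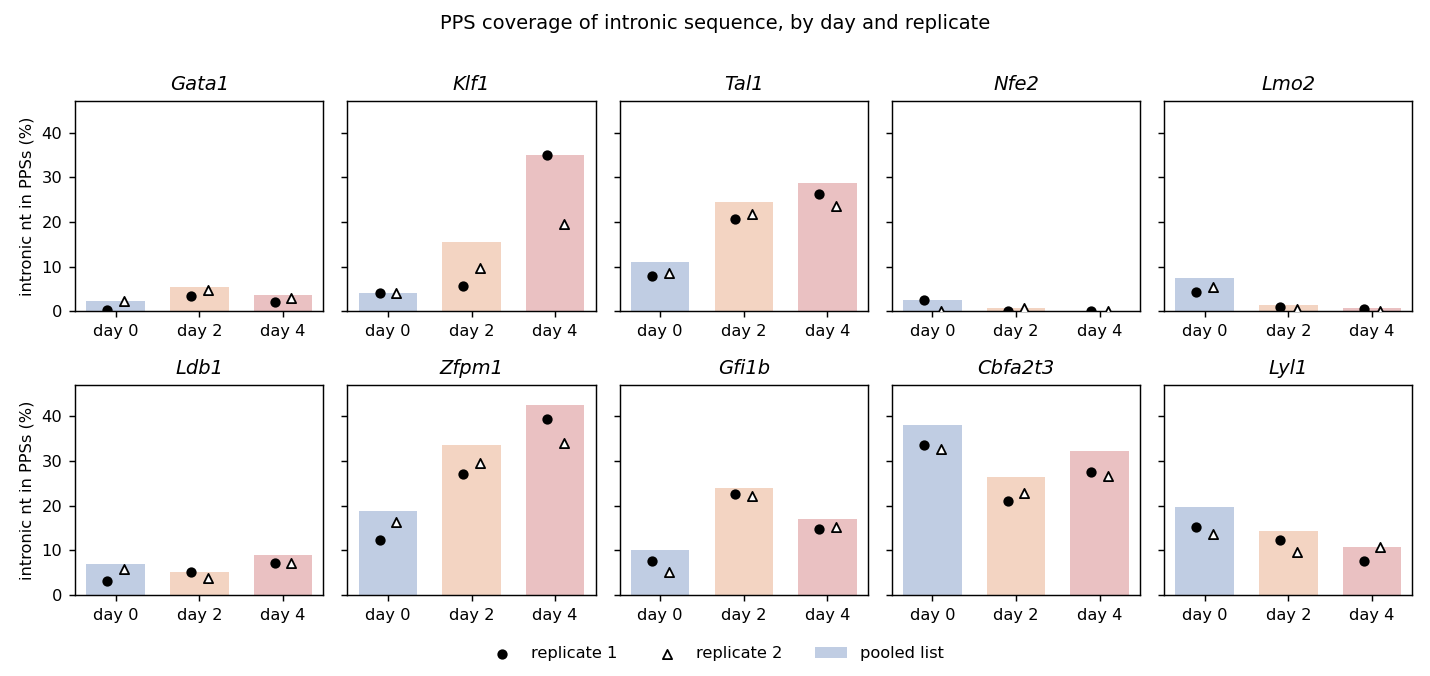
Intronic coverage (percentage of intronic nt in a PPS) of the 10 genes at days 0, 2 and 4, with bars for the pooled list, circles for replicate 1 and open triangles for replicate 2. Klf1, Tal1 and Zfpm1 climbed over the days, reaching pooled values of 35.1%, 28.8% and 42.6% at day 4, Gfi1b was highest at day 2, and Cbfa2t3 started at 38.0%.

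One call set needs stating beside these counts. Of the PPSs with an ssRNase call of replicate 2, 66.9% were on the plus strand at day 0 and 43.3% at day 4, whereas in the other 10 call sets this share was 49.8% to 51.8%. Klf1, Tal1, Lmo2, Zfpm1 and Lyl1 are on the plus strand, on which 25.7% of genes were higher and 29.1% lower in exonic coverage at day 4, against 36.1% and 21.6% on the minus strand. In intronic coverage at day 4, 21.4% of plus-strand genes were higher and 30.1% lower, against 32.7% and 18.4% on the minus strand. Without the ssRNase calls of replicate 2, Tal1 and Zfpm1 remained higher in exons at day 4 and Lmo2 remained lower, while Ldb1, Gfi1b and Cbfa2t3 overlapped, so that the higher count was 2 (20.9% of genes) and the lower count 1 (18.2% of genes). The pooled changes of these 3 kept their direction, at 13.1 points for Ldb1, -6.34 for Gfi1b and -6.97 for Cbfa2t3. At day 2 without these calls, Tal1 and Zfpm1 were higher (6.09% of genes) and Nfe2, Lmo2 and Cbfa2t3 lower (24.1% of genes), so that Klf1 and Lyl1 overlapped, with pooled changes of 16.6 and -0.778 points. In introns Klf1, Tal1, Ldb1 and Zfpm1 remained higher and Lmo2 and Lyl1 lower, Gata1 joined the higher ones, and Gfi1b and Cbfa2t3 overlapped, beside 17.9% of genes higher and 9.94% lower.

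The 2 nucleases were then separated, since each leaves a different view of the same RNA. With ssRNase calls alone, exonic coverage at day 4 was higher for Gata1, Klf1, Tal1 and Ldb1 (4 members, 23.3% of genes) and lower for Lmo2, Gfi1b, Cbfa2t3 and Lyl1 (4 members, 22.4% of genes). With dsRNase calls alone it was higher for Tal1, Nfe2, Ldb1 and Zfpm1 (4 members, 29.5% of genes) and lower for Lmo2, Gfi1b and Lyl1 (3 members, 18.9% of genes). Tal1 and Ldb1 were thus higher, and Lmo2, Gfi1b and Lyl1 lower, in both views, and no member had opposite calls. With calls of both nucleases together Lyl1 overlapped day 0, the pairs running from -16.2 to 4.78 points. Its ssRNase pairs ran from -6.67 to -0.333 points, so that call rests on a small gap. Tal1, Lmo2 and Lyl1 are on the plus strand, where 29.1% of genes were lower and 17.01% higher in ssRNase exonic coverage at day 4. On the minus strand these shares were 15.4% and 29.8%. PPSs merged from calls of both nucleases count in both views, so the views are not independent.

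The dsRNase calls carried most of the Tal1 exonic change. They covered 10.2% and 12.4% of its exons at day 0, 9.48% and 12.6% at day 2, and 53.2% and 37.6% at day 4, so that the step fell between day 2 and day 4 in both replicates. ssRNase calls covered 8.77% and 8.997% at day 0, 12.1% and 17.8% at day 2, and 16.03% and 18.1% at day 4, and had already separated from day 0 at day 2. Lmo2 dsRNase coverage was lower at day 2, at 3.001% and 5.68% after 23.7% and 25.99%, and it stood at 16.2% and 12.004% at day 4. These directions were common. In exonic dsRNase coverage 61.1% of genes had a negative change from day 0 to day 2, and 66.9% had a positive one from day 2 to day 4. The dsRNase call sets also differed in size, with 40730 and 20569 PPSs at day 2 and 66586 and 50594 at day 4.

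Intronic protection of Klf1 by the 2 nucleases appeared at different times. No dsRNase call touched its introns at day 0 or day 2, and at day 4 they covered 11.1% and 19.6%. ssRNase calls covered 4.14% in each replicate at day 0, 5.78% and 9.76% at day 2, and 35.1% and 19.6% at day 4. In Zfpm1 introns, dsRNase coverage was 3.30% and 3.27%, then 5.67% and 8.06%, then 25.8% and 19.6%, and ssRNase coverage was 10.79% and 15.2%, then 25.5% and 28.6%, then 32.4% and 28.0%. The main step was thus at day 2 for ssRNase and at day 4 for dsRNase. Over all genes the median dsRNase intronic change from day 2 to day 4 was 0.233 points and 72.2% of genes had a positive one, so a gain of dsRNase coverage in this interval was common. Cbfa2t3 introns were lower at day 4 in ssRNase calls, with a change of -8.73 points (-9.78 to -5.88), whereas dsRNase calls gave -0.122 points (-3.60 to 6.21) and overlapped day 0. Lyl1 introns overlapped with either nuclease alone.

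**Figure D3:**
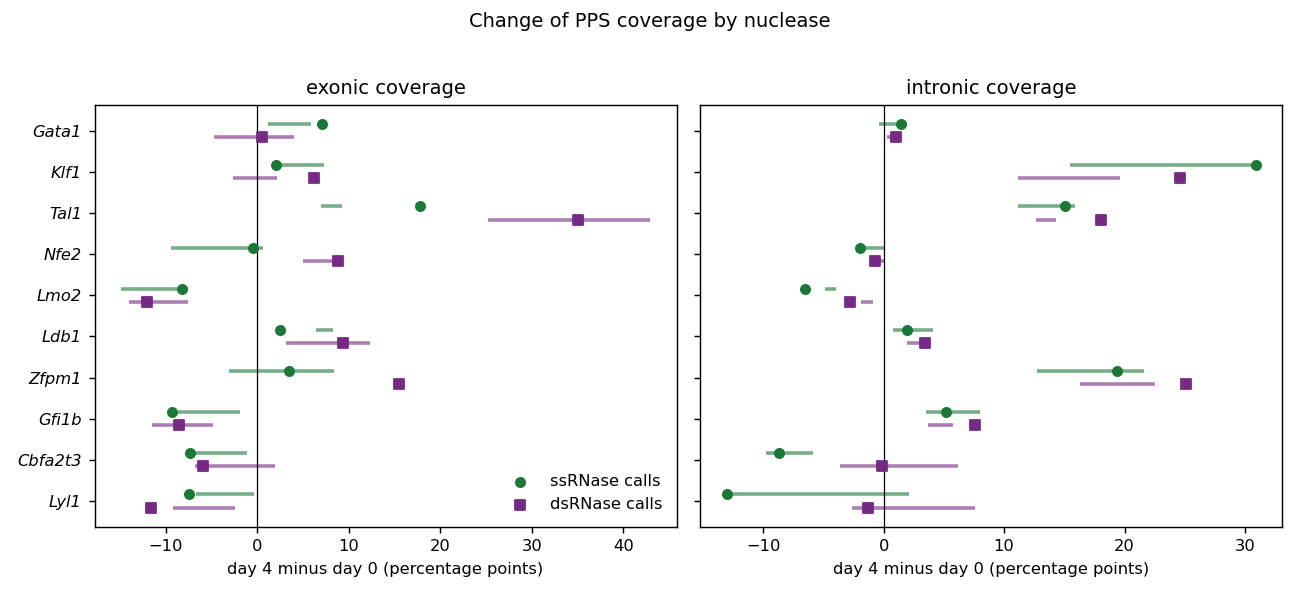
Change of coverage from day 0 to day 4 (percentage points) of each gene in exons and introns, separately for ssRNase and dsRNase calls, with points for the pooled list and lines for the range over the 4 pairs of replicates. The Tal1 exonic point of dsRNase calls lies far to the right of its ssRNase point, and both exonic points of Lmo2 lie left of 0.

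Within transcripts, the members differed in where coverage lay. The parts below belong to the transcript with the longest CDS of each gene, and stop codons count as CDS. In Tal1 the 3′ UTR, 3030 nt of the last exon, was covered at 26.01% at day 0, 24.7% at day 2 and 64.5% at day 4 (64.5% and 45.9% in the replicates). The Tal1 CDS was ahead of it, with 16.97%, 42.9% and 46.9%. The CDS was thus separated from day 0 by day 2, with replicates at 36.8% and 34.0% against 8.28% and 14.8%, and the 3′ UTR at day 4 only.

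Of the parts of this Ldb1 transcript the CDS was the most densely covered, at 28.3%, 40.2% and 51.6% on the 3 days. Its 3′ UTR went from 0% through 4.35% to 11.3%. Ldb1 exonic coverage also counts exons of other transcripts, which lie partly in introns of this one. Intron 10, for example, was covered at 57.7%, 44.2% and 57.2%. Exon 4 was covered at 100.0%, 84.2% and 80.3%, with calls of both replicates and of both nucleases on each day. These equal values rest on shared merged PPSs and are not separate measurements. Zfpm1 has a 3′ UTR of only 60 nt, covered at 0%, 26.7% and 96.7%, and a long CDS covered at 19.6%, 30.3% and 33.8%. Cbfa2t3 showed the reverse in its CDS, with 39.0%, 31.2% and 22.7%, the replicates being 33.7% and 30.2% at day 0 and 20.8% and 11.4% at day 4. Its long 3′ UTR of 5566 nt was sparsely covered throughout, at 12.001%, 8.35% and 10.96%.

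Gfi1b kept a covered 5′ UTR, with 77.4%, 80.6% and 81.9%, as its CDS went through 24.7%, 21.5% and 16.03% and its 3′ UTR from 14.6% and 18.6% to 0%. Lyl1 had its densest coverage in the 3′ UTR at day 0, 72.8%, and 27.7% and 38.2% later, with a CDS at 36.6%, 46.95% and 36.1%. In Nfe2 the CDS was covered at 9.24%, 1.76% and 27.9%, and its day 4 replicates, 27.9% and 19.1%, stood above those of day 0, 4.28% and 6.72%, though its exons as a whole overlapped. The Klf1 CDS peaked at day 2 with 38.8%, between 18.1% and 22.2%. Pooled Gata1 CDS coverage was 18.04%, 7.97% and 21.8%. Its day 4 replicates, 21.8% and 6.84%, lay on either side of those of day 0, 11.6% and 12.4%. Pooled Lmo2 CDS coverage was 45.3%, 18.05% and 34.1%. The Lmo2 replicates were 29.3% and 45.3% at day 0, 18.05% each at day 2, and 21.1% and 12.95% at day 4. Those of day 4 were thus below day 0 and on either side of day 2.

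Coverage was spread unevenly over introns, here those of the transcript with the longest CDS, parts of which can be exons of other transcripts. Intron 1 of Cbfa2t3 was covered at 43.2%, 31.8% and 37.6% on the 3 days, and intron 1 of Gfi1b at 14.9%, 31.1% and 23.6%. Zfpm1 was covered in intron 1 at 20.6%, 35.9% and 41.8% in intron 3 at 23.5%, 37.7% and 49.8%, and in intron 5 at 31.2%, 41.1% and 59.6%. The Klf1 gain was shared by intron 1, from 0% to 30.4%, and intron 2, from 6.03% to 37.2%. Tal1 introns 1 and 2 went from 18.7% and 17.4% to 39.4% and 35.6%, intron 4 from 0.968% to 24.5%, and intron 3 held no PPS on any day. Lmo2 intron 1 went from 20.9% to 3.10%.

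**Figure D4:**
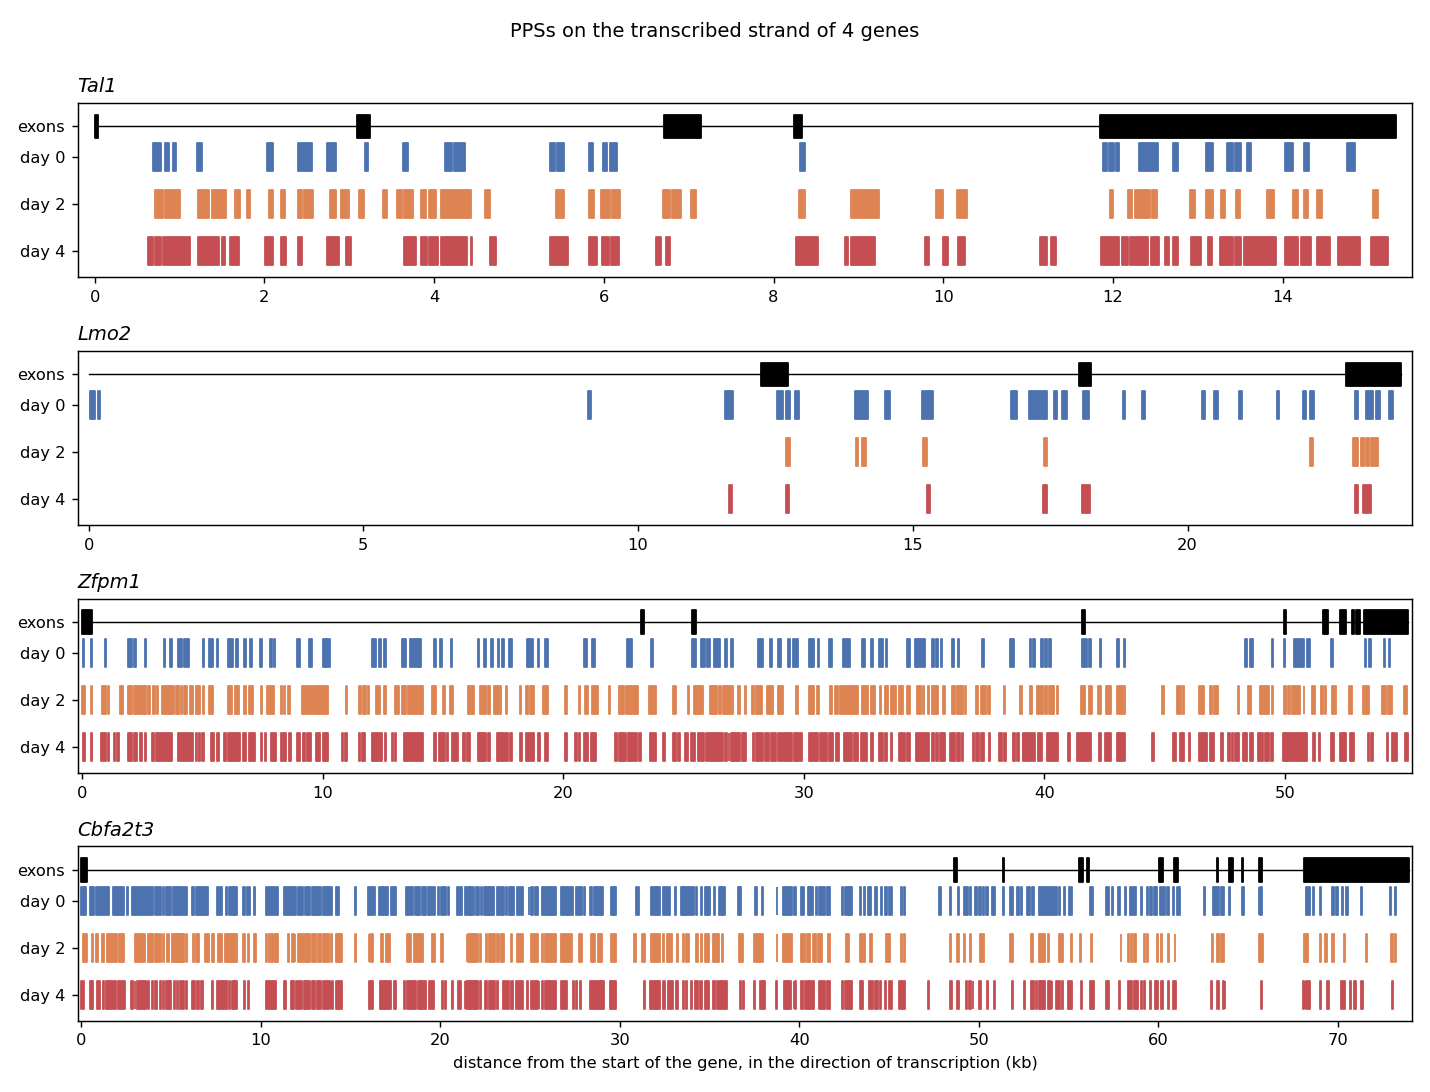
Position of each PPS along Tal1, Lmo2, Zfpm1 and Cbfa2t3 (distance from the gene start in kb), with 1 row a day and the exons of the main transcript in black. Zfpm1 and Tal1 filled up from day 0 to day 4, Lmo2 lost most of its intronic PPSs but kept exonic ones, and the PPSs of Cbfa2t3 gathered in intron 1 on all days.

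To see whether the same sites recurred, overlapping PPSs of the 3 days were joined into 742 regions. All 3 days shared 262 of these (35.3%), 71 (9.57%) were restricted to day 0, and 300 (40.4%) to day 2 or day 4 or both. Over the whole series the shares were 14.4%, 19.5% and 50.1% of 220639 regions. The PPSs of the members were also supported by both replicates more often than the lists, in 49.1%, 52.6% and 52.8% of cases at days 0, 2 and 4 beside 30.8%, 30.8% and 35.8%. Shares of both kinds can follow coverage, and the members were more covered than most genes.

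Recurrence was uneven across members. Lyl1 had 6 of 11 regions and Cbfa2t3 124 of 266 on all days, and Klf1 had 1 of 17. Regions seen only after induction made up 12 of 17 for Klf1 (70.6%), 37 of 62 for Tal1 (59.7%) and 147 of 248 for Zfpm1 (59.3%). Over the whole series this share was 50.1%. It was 57.1% for Gata1, 46.7% for Nfe2, 45.7% for Ldb1 and 48.6% for Gfi1b. Lmo2 stood opposite, with 19 of 30 regions at day 0 only and 0 only after induction.

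Calls of both replicates on each of the 3 days were found in 109 regions, which fell on 8 members, and Nfe2 and Lyl1 had 0. Cbfa2t3 held 64 of them, 60 in intron 1, and Zfpm1 held 29, of which 12 were in intron 1 and 14 in intron 3. Tal1 had 7, Ldb1 4, Gfi1b 2, and Gata1, Klf1 and Lmo2 1 each. Introns of the main transcript held 102 of the 109 wholly, and 7 touched an exon of that transcript. Among the 102, chr4:115057252-115057486 in Tal1 and chr19:46039068-46039268 in Ldb1 touched an exon of another transcript. In 107 of them a stretch lay inside a PPS on all 3 days, 18 to 364 nt long with a median of 77 nt, as in the printed examples from Klf1, Ldb1, Zfpm1, Gfi1b and Cbfa2t3. Calls of all 12 call sets met in 1 region only, 551 nt of Cbfa2t3 intron 1 at chr8:122666848-122667398.

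**Figure D5:**
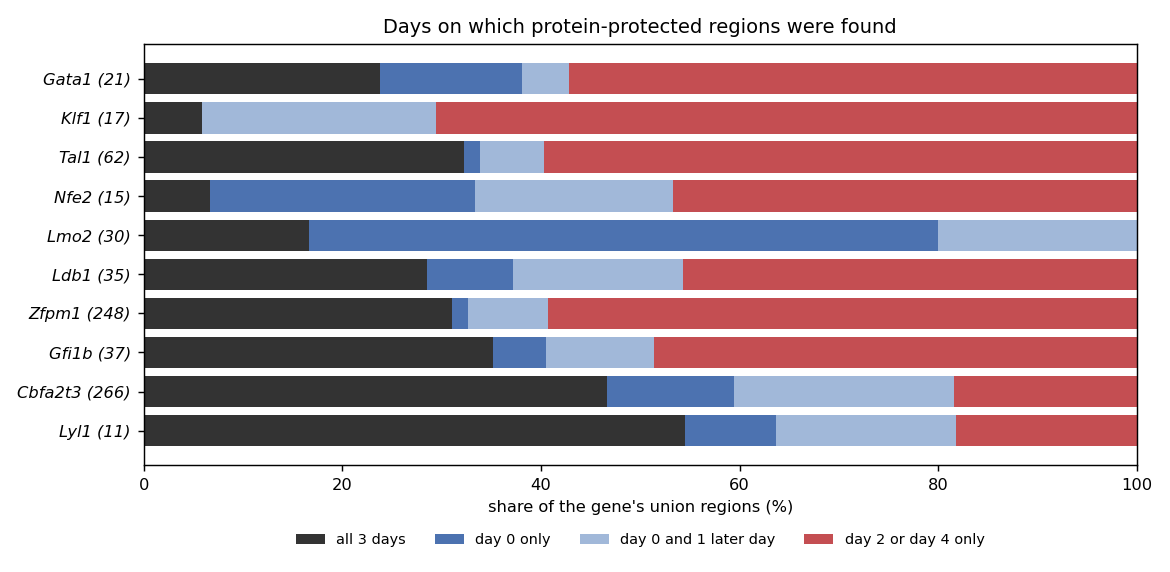
Share of the union regions of each gene by the days on which they were found, with the number of regions in brackets. Lmo2 is dominated by regions restricted to day 0, and regions present throughout are the largest class in Lyl1 and Cbfa2t3. In the other members regions first seen under DMSO are the largest class, beside a share of 50.1% over the whole series.

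The highest-scoring PPS of a member was usually intronic or crossed a splice site. Most PPSs of the members were of this kind. Those lying only in exons, of any transcript, numbered 84 of 509, 87 of 576 and 99 of 644 on the 3 days. The score is the enrichment value of the authors' caller, its lowest value was 5.4, and PPSs merged from several calls score higher. Cbfa2t3 reached 133.92 at day 4 in intron 1, in a PPS with 12 calls, and Zfpm1 reached 117.07 at day 2 in intron 1. Gfi1b had 70.47 across its first exon and intron, Tal1 59.54 in the printed site of intron 2, Ldb1 49.58 across exon 10 and intron 10, and Lmo2 47.39 in the printed site of exon 1. The printed sites of Lyl1, Gata1 and Nfe2 scored 44.95, 38.44 and 26.90, and Klf1 reached 29.87 in its last exon.

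In base composition, the intronic PPS nucleotides held more G than the introns they came from in 9 of 10 members and less C in 10 of 10. Zfpm1 PPSs were 30.4% G against 27.9% in its introns, Cbfa2t3 29.4% against 26.9%, Tal1 31.2% against 27.2% and Gfi1b 30.0% against 25.6%. Lyl1, with 25.0% against 25.2%, was the exception. The same direction was found in 92.1% of the 7333 genes for G and in 89.3% for C, so this was general. Repeat sequence was scarcer in PPSs than in introns for all 10 members, for example 4.16% against 13.6% in Cbfa2t3 and 12.3% against 36.3% in Gata1, as it was for 96.5% of genes.

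PPSs wholly inside 3′ UTRs of the members numbered 25, 29 and 31 on the 3 days, and were searched on the transcript strand for 3 words. ATTTA, the core of AU-rich elements, was held by 2, 0 and 1 of them. AATAAA, the polyadenylation signal, was held by 1 on each day, and TGTANATA, the Pumilio word, by 3, 0 and 2. The TGTANATA matches were 1 in Gfi1b and 2 in Cbfa2t3 at day 0 and 2 in Tal1 at day 4. Among all 3′ UTR PPSs the words were held by 10.81%, 5.77% and 2.84% at day 0, by 7.33%, 3.32% and 2.22% at day 2 and by 9.66%, 5.24% and 2.15% at day 4. The shares of members rest on 0 to 3 PPSs and were not tested against those of all genes. A match is a description of letters only.

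The partners and cofactors of these factors gave a frame for the members. Of 60 listed genes, 52 had an exonic PPS, and 23 were higher and 13 lower in exonic coverage at day 4, after 12 higher and 22 lower at day 2. The shares of all genes were 30.8% higher and 25.4% lower at day 4, and 22.3% and 30.4% at day 2. Corepressors and chromatin proteins had 7 higher and 2 lower of 16, coactivators 3 and 0 of 7, the bridging and E protein partners 4 and 4 of 12, and other erythroid regulators 9 and 7 of 17. By the naming rule, Foxo3, a regulator of late erythroid genes, was covered at 5.997% and 3.13% at day 0 and 29.5% and 28.0% at day 4. Mta1 of the NuRD complex had 6.57% and 11.1% against 20.9% and 17.5%. Rcor1, a partner of the demethylase Kdm1a, had 6.25% and 11.4% against 22.4% and 20.2%.

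Among the lower genes, Bcl11a, a repressor of globin genes of early development, had 27.9% and 28.5% at day 0 and 2.82% and 1.26% at day 4. Spi1 (PU.1), whose activity opposes that of Gata1, had 11.3% and 7.72% against 0.223% and 0%. Nfe2l1, a relative of Nfe2, had 18.8% and 25.1% against 12.1% and 11.5%. All 3 were already lower at day 2, with pooled values of 14.0%, 1.71% and 17.3%.

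The erythroid markers Hba-a1, Hba-a2, Hbb-bs, Hbb-bt, Alas2, Slc4a1, Epb42 and Tfrc each had exonic PPSs on at least 1 day and each was higher at day 4. No exonic PPS lay on any of 6 granulocyte or monocyte markers or of the 4 lymphoid markers annotated as protein-coding. Of 5 megakaryocyte markers 3 had one, and of these Itga2b was higher at day 4, with 33.9% and 34.3% at day 0 and 40.5% and 39.5% at day 4. Pooled Pf4 coverage was 31.2%, 6.93% and 11.5%, Vwf was covered at 0.367% at day 2 alone, and Gp1bb and Gp9 were at 0 throughout. What part this list has in the values of Gata1, Tal1 and Gfi1b, which megakaryocytes also express, was not tested.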

How the data were processed

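PIP-seq libraries of MEL cells were trimmed with cutadapt 1.2.1 and aligned to mm10 with TopHat2 2.0.10, as named in the submitters' processing notes. The authors called PPSs with a modified CSAR package by a Poisson test of footprinting against structure-only reads at an FDR of 5% and deposited 1 list a day, with a score for each PPS that is an enrichment value. Library scaling before calling is not given in the sources used here, and merged PPSs started at 10.8 against 5.4 for all, as if scores of merged calls were added. Depth is unknown from these lists, so no counting interval can be given. Groups were taken from sample titles, and the name field gave 12 call sets (3 days, 2 nucleases, 2 replicates).

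PPSs of 20 to 40 nt were left out, following the study. Genes came from GENCODE M21 (21 chromosomes, union of exons, introns being the rest of the gene body), and sequences from the GRCm38.p6 assembly of RefSeq. Zfpm1 lies within Gm20388 and Cbfa2t3 overlaps Gm15899 on the same strand, so their PPSs cannot be told apart from those of these transcripts. Parts of transcripts used the transcript with the longest CDS, stop codon included. Named genes were the 10 members and, of 60 listed partners with at least 500 exonic nt and replicates that did not overlap, the 3 largest rises and 3 largest falls of pooled exonic coverage to day 4. Named PPSs were each member's highest-scoring one and the regions found on all days with both replicates. A marker of the erythroid list is not reported here. Members, lists and rules were chosen with earlier results of these data known. Alternatives were PPSs of all lengths, equal numbers of top-scoring PPSs, PPSs at or above the median score, each nuclease alone, both replicates required, the longest-CDS transcript, and each replicate left out. Per-sample columns not used numbered 0. The functions were tested on simulated data. Python 3.11.15, numpy 2.4.6, pandas 2.3.3 and matplotlib 3.10.9 were used.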

Additional observations from a re-analysis of the deposited data

Results flagged for a closer look

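On the strand opposite Gata1, where no antisense gene is annotated, 9 PPSs were found at day 0, 14 at day 2 and 1 at day 4. They are given because they lie outside every comparison of coverage above. Called PPSs are not independent counts and depth is unknown, so no limit or interval is attached to these numbers, and whether they come from an unannotated transcript was not tested.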

How the results depend on the processing

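No paired analysis was possible because the labels link no replicate of one day to a replicate of another and no result came from a test. Of the alternatives applied to the counts and medians over the members, 54 values stayed close to the reported one. In the rest, 12 medians moved by more than their spread over the pairs of replicates, 2 counts were larger and 1 was smaller. The median exonic change at day 2, reported as -0.0925 points, was -1.50 with PPSs at or above the median score, -1.35 with ssRNase calls only and -2.03 with the longest-CDS transcript, and the count of members higher in exons at day 2 was 1 with dsRNase calls only. Leaving out a replicate takes away part of a day's pooled coverage by construction, and it moved the medians most. The median exonic change ranged from -5.63 to 8.57 points at day 4 and from -6.36 to 5.29 at day 2, and the median intronic change at day 4 from 0.00283 to 4.56. The counts of higher members ranged from 3 to 5 in exons at day 4, from 2 to 5 in exons at day 2 and from 5 to 6 in introns at day 4. For the changes of single members, 212 values stayed within the spread over the pairs of replicates and 145 moved beyond it. Of the changes of single members that carried a call, 3 values turned sign, all with a day 0 replicate left out, which sets the union of both later replicates against a single one. The Cbfa2t3 exonic change at day 4 was then 0.322 and 0.0119 points without replicate 1 and replicate 2 (-12.9 to 0.322 over all replicates left out), and the Lyl1 exonic change at day 2 was 5.78 points without replicate 2 (-21.7 to 5.78). Replicate against replicate, all 4 pairs were negative, from -6.46 to -2.84 points for Cbfa2t3 and from -18.8 to -3.11 for Lyl1. Changes without a call were less stable. In exons at day 4 the sign turned under 4 alternatives for Nfe2, 2 each for Klf1 and Lyl1 and 1 for Gata1, at day 2 under 7 for Ldb1, 6 for Gata1, 4 for Gfi1b and 2 for Tal1, and in introns at day 4 under 1 for Gata1. The exonic changes at day 4 of Tal1, Lmo2, Ldb1, Zfpm1 and Gfi1b kept their sign under all 12 alternatives. Leaving out the ssRNase calls of replicate 2 was chosen after seeing the data. Unknown depth limits every value of low coverage.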
